A study of Mus musculus with 5 samples.

Results

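The genes described here are 8 components of the Wnt and beta-catenin pathway, chosen by symbol: the signal carrier Ctnnb1 (beta-catenin), the destruction complex genes Apc, Axin1, Gsk3a, Gsk3b and Csnk1a1, the cytoplasmic relay Dvl2 and the nuclear co-activator Bcl9. All 8 were among the 11643 genes with a deposited value, and all 8 were among the 10570 genes tested, whose mean over the 5 libraries reached 1 FPKM (fragments normalised to transcript length and to the number mapped). RNA was sequenced from bone marrow haematopoietic stem cells (HSCs) of C57BL/6 mice, sorted as lineage-negative, c-Kit+, Sca-1+, CD150+ and CD48- cells. The groups were 2 libraries labelled Tle1/3/4-deficient, from mice with floxed Tle1, Tle3 and Tle4 alleles to be excised by Vav-Cre, and 3 libraries from control mice. Vav-Cre is active throughout the blood system and is not limited to HSCs. The control titles also carry the tag VavC, and whether those mice carried Vav-Cre is not stated. Beyond this, the control genotype, the age and sex of the mice and the number of mice per library go unstated. Each p-value here therefore speaks of library-to-library spread alone, whether biological or technical. TLE proteins are co-repressors that sit on TCF and LEF factors at Wnt target genes, and the series asked how their loss alters expression in HSCs.

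In cells without a Wnt signal, a complex built on the scaffolds Axin and Apc holds beta-catenin while casein kinase 1 alpha and then glycogen synthase kinase 3 phosphorylate it, and the phosphorylated protein is ubiquitinated and degraded. When a Wnt ligand binds a Frizzled receptor, Dishevelled draws Axin to the membrane, beta-catenin escapes degradation and enters the nucleus, and there it displaces TLE co-repressors from TCF and recruits Bcl9 and Pygo. Most of this control acts on protein, which RNA levels do not show. In blood formation the dose of this pathway is known to matter, since forced beta-catenin activity in mice exhausts HSCs.

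The stretch of Ctnnb1 that the destruction complex acts on is shown because it joins 4 of the 8 genes, the substrate and its kinases. It lies in exon 3 of a GENCODE coding transcript, on the plus strand at chr9:120950596-120950652 (GRCm38, GENCODE), and spans codons 30 to 48. Capitals mark codon 45, whose residue casein kinase 1 alpha phosphorylates first, and codons 41, 37 and 33, whose residues the Gsk3 kinases then phosphorylate in that order.
Ctnnb1 codons 30 to 48: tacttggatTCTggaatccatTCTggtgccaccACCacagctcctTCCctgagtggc

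Facts of the whole series bear on every value below. The columns summed to 599137 to 683822 FPKM, and absolute read depth is unknown. Relative to control replicate 1, depth read from the ratio most often seen among low values was 1.10 to 1.46 in the other libraries, resting on as few as 6 of 65 low genes. Spearman correlations across tested genes were 0.760 to 0.835 between libraries. The targeted gene Tle3 was higher under the deficient label, opposite to what the label names, so directions depend on the labels. It was at 32.3 and 31.6 FPKM there, against 2.48, 4.97 and 5.61 FPKM in control libraries (log2 fold change 2.68, adjusted p = 0.424, limma). A value per gene does not show whether the floxed part of Tle1, Tle3 or Tle4 was excised. Tle4 was low in both deficient-labelled libraries and in 1 control, at 0.353 and 0.203 FPKM under the deficient label, against 5.67, 0.0129 and 5.29 FPKM for controls (log2 fold change -1.45, adjusted p = 0.726, limma). Tle1 was at 2.84 and 4.37 FPKM under the deficient label, against 1.83, 0.811 and 3.33 FPKM for controls, and the groups overlapped (log2 fold change 0.69, adjusted p = 0.83, limma). An exact 0 can be a failed estimate, since Eif4a1, a translation factor that every cell uses, has a 0 in 1 library yet no less than 533 FPKM in the rest. None of the 8 components was at 0 in any library, whereas 84.4% of tested genes were above 0 in all 5. Of all tested genes 10.2% lay above and 15.9% below every control in both libraries labelled deficient, and 0 markers of any cell type list below passed the threshold (limma, adjusted p under 0.05). Of 15 granulocyte-monocyte markers, 10 lay above every control, and the list summed to 11267 and 67481 FPKM under that label, against 594 to 3055 FPKM in control libraries. Of 11 megakaryocyte-platelet markers, 8 lay above and 1 below every control (sums of 4367 to 9129 against 861 to 1677 FPKM). Of 10 erythroid markers, 4 lay above (1034 to 1680 against 841 to 1131 FPKM). Single genes dominate these sums. Car2, an erythroid marker, overlapped, at 906 and 1075 FPKM under the deficient label, against 1076, 1069 and 792 FPKM for controls. Under the deficient label S100a8 was at 7679 and 37600 FPKM of the granulocyte-monocyte sums, and Pf4 at 7503 and 3023 FPKM of the megakaryocyte-platelet sums. HSC and gate markers were expressed in all libraries, but 5 of 10, among them Kit and Hlf, lay below every control (303 to 431 against 595 to 761 FPKM) and 1, Slamf1, lay above. Slamf1 encodes CD150, a marker of the sort, and was at 31.8 and 31.0 FPKM under the deficient label, against 14.9, 24.0 and 21.1 FPKM for controls. Ly6a, which encodes Sca-1, overlapped, at 155 and 14.05 FPKM under the deficient label, against 57.8, 96.3 and 199 FPKM for controls. Cd48, whose product the sort excluded, also overlapped. Its values were 7.19 and 23.4 FPKM under the deficient label, against 3.22, 4.63 and 13.01 FPKM for controls. The sums of this list include Cd48. Within these lists, markers at 0 in at least 1 library were Selp, Alas2 and Ermap, each in controls only. Of 4 lymphoid markers 1 exceeded all controls (19.6 to 109 against 48.8 to 64.6 FPKM), with Cd4, Cd79a and Klrb1c at 0 in some libraries. Of 6 tested endothelial and stromal markers, 2 exceeded and 1 was below all controls (57.4 to 84.7 against 53.1 to 62.6 FPKM), with Kdr, Cxcl12 and Col1a1 at 0 in some. In bulk RNA, a smaller share of cells of a type and less RNA per cell cannot be told apart, and the part of these shifts in the values below was not tested.

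None of the 8 components passed the threshold between deficient-labelled and control HSCs, and in none did the 2 groups of libraries separate. Adjusted p over all tested genes ran from 0.765 for Dvl2 to 0.976 for Csnk1a1 (limma on log2(FPKM + 1), two-sided, Benjamini-Hochberg, threshold 0.05). Over all tested genes 0.0189% passed, 2 of 10570. At an unadjusted p under 0.05 there were 0 of the 8 components, against 8.45% of all tested genes, and groups that did not overlap were found in 0 of 8, against 26.1%. The log2 fold changes of the components were positive in 4 and negative in 4, with a median of 0.043, beside -0.10 for all tested genes. Median-of-ratios scaling moved the median of all genes up by 0.12, to 0.015.

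**Figure D1:**
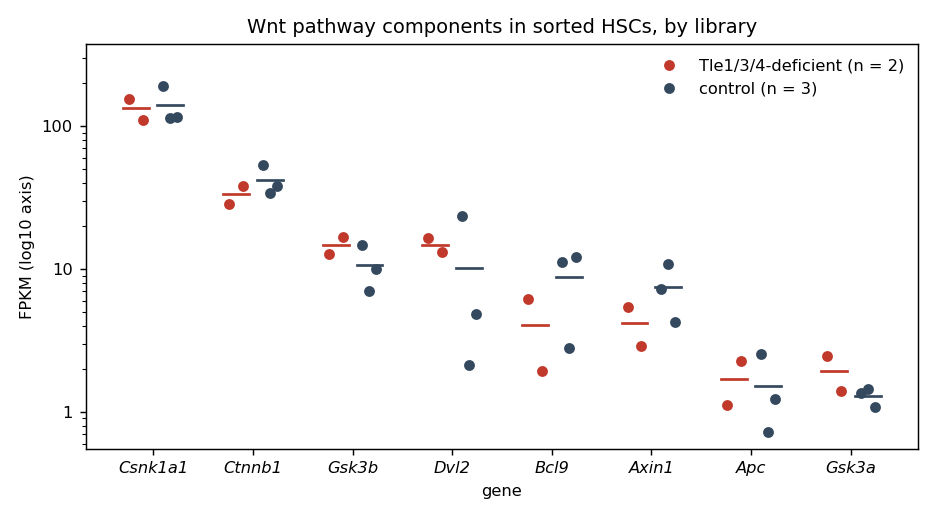
FPKM of each component on a log10 axis, with 1 point per library and a bar at each group mean, the 2 deficient-labelled libraries (red) left of the 3 controls (dark). Levels span from 0.729 to 190 FPKM, and the points of the groups overlap for every gene.

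The components were expressed at very different levels, with the kinase of the first phosphorylation at the top and its partner kinase Gsk3a at the bottom. On the FPKM scale, which is per length, the means over the 5 libraries were 137 ± 34.8 FPKM for Csnk1a1, 38.6 ± 9.15 FPKM for Ctnnb1, 12.3 ± 3.87 FPKM for Gsk3b and 12.0 ± 8.72 FPKM for Dvl2 (SD, n = 5). Below these stood Bcl9 at 6.88 ± 4.72 FPKM, Axin1 at 6.13 ± 3.09 FPKM, Apc at 1.58 ± 0.789 FPKM and Gsk3a at 1.55 ± 0.521 FPKM (SD, n = 5). Csnk1a1 lay at percentile 93.8 of all 11643 genes by mean FPKM, Ctnnb1 at 76.9, and Apc and Gsk3a at 13.1 and 12.8. The highest mean was 88.7 times the lowest. Csnk1a1 was above Ctnnb1 in 5 of 5 libraries, by 2.90 to 5.45 times, and Ctnnb1 was above Gsk3b in 5 of 5, by 2.23 to 4.89 times. Axin1 was above Apc in 5 of 5 libraries, by 1.27 to 14.9 times. The other neighbours in the order changed places between libraries: Gsk3b was above Dvl2 in 3 of 5, Dvl2 above Bcl9 in 3, Bcl9 above Axin1 in 3 and Apc above Gsk3a in 3.

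Ctnnb1 encodes beta-catenin, which works both as the messenger of the pathway and as a link between cadherins and the cytoskeleton. It was at 28.7 and 38.2 FPKM in libraries labelled deficient, against 53.3, 34.2 and 38.5 FPKM in control libraries. The lowest value was a deficient-labelled library and the highest a control, but deficient-labelled replicate 2 lay among the controls. Means were 33.4 ± 6.73 FPKM under the deficient label and 42.0 ± 10.04 FPKM for controls (SD, n = 2 and 3), a log2 fold change of -0.31 (SE 0.37, adjusted p = 0.835, limma). The 95% interval ran from -1.16 to 0.55 on the log2(FPKM + 1) scale, so changes within that range were not resolved. The fold change was -0.11 without deficient-labelled replicate 1, -0.51 without deficient-labelled replicate 2 and -0.13 without control replicate 1. Exons of Ctnnb1 share 759 bases with the opposite-strand gene Ulk4 in the GENCODE annotation, and the strandedness of the libraries is not stated. Ulk4 was listed at 0 in both libraries labelled deficient, against 0, 4.64 and 1.11 FPKM in control libraries.

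Csnk1a1 encodes casein kinase 1 alpha, which places the priming phosphate on beta-catenin. It was at 156 and 111 FPKM in libraries labelled deficient, against 190, 115 and 116 FPKM in control libraries. Deficient-labelled replicate 1 and control replicate 1 were high and the other 3 libraries stood close together. The log2 fold change was -0.051 (SE 0.33, 95% interval -0.83 to 0.73, adjusted p = 0.976, limma), the narrowest interval of the 8. Its sign is not fixed, being 0.076 after median-of-ratios scaling.

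The 2 forms of glycogen synthase kinase 3 come from separate genes and both act on beta-catenin, and Gsk3b was the more abundant in every library. Gsk3b was at 12.8 and 16.8 FPKM in libraries labelled deficient, against 14.8, 6.99 and 10.1 FPKM in control libraries. Control replicate 1 lay between the deficient-labelled libraries, and the other controls lay below both. Its log2 fold change was 0.49 (SE 0.55, 95% interval -0.80 to 1.77, adjusted p = 0.826, limma), 0.31 without deficient-labelled replicate 2, 0.74 without control replicate 1 and 0.25 without control replicate 2. Gsk3a was at 2.45 and 1.40 FPKM in libraries labelled deficient, against 1.36, 1.46 and 1.08 FPKM in control libraries. Only deficient-labelled replicate 1 stood apart, and Gsk3a shares 820 exon bases with an opposite-strand transcript, 9130221H12Rik. The log2 fold change of Gsk3a was 0.32 (SE 0.77, adjusted p = 0.932, limma), and a change on log2(FPKM + 1) is understated at such a low level. Leaving out replicate 1 of the deficient-labelled pair gave 0.064, and leaving out replicate 2 gave 0.59.

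The balance between the 2 forms did not separate the groups. Gsk3b was 5.25 and 12.0 times Gsk3a in the deficient-labelled libraries and 10.9, 4.79 and 9.28 times in the controls, so the deficient-labelled values were the highest and the next to lowest of 5. The log2 ratio, each FPKM plus 1, averaged 2.45 ± 0.63 under the deficient label and 2.28 ± 0.53 for controls (SD, n = 2 and 3), a difference of 0.16 (exact permutation test over 10 regroupings, two-sided p = 0.8). The smallest p this design allows is 0.1. Without deficient-labelled replicate 2 the difference was -0.28, and without control replicate 2 it was -0.13.

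Axin1 and Apc are the scaffolds of the destruction complex. In frog egg extracts Axin is known as its scarcest part. Axin1 was at 5.44 and 2.88 FPKM in libraries labelled deficient, against 7.21, 10.9 and 4.24 FPKM in control libraries. Deficient-labelled replicate 2 was the lowest library, and replicate 1 lay between control replicates 3 and 1. The log2 fold change was -0.68 (SE 0.71, 95% interval -2.32 to 0.97, adjusted p = 0.81, limma), -1.04 without deficient-labelled replicate 1, -0.31 without replicate 2 and -0.39 without control replicate 2. Apc, whose loss starts most human colon cancers, was at 1.12 and 2.28 FPKM in libraries labelled deficient, against 2.56, 0.729 and 1.24 FPKM in control libraries. The libraries of the groups interleaved, and the log2 fold change of 0.14 had a 95% interval from -1.76 to 2.03 (adjusted p = 0.974, limma). The sign of Apc turned when single libraries were left out, to -0.18 without deficient-labelled replicate 2 and -0.099 without control replicate 2. Ctnnb1 was 5.27 and 13.2 times Axin1 in the deficient-labelled libraries and 7.39, 3.14 and 9.07 times in the controls, a ratio that also overlapped.

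**Figure D2:**
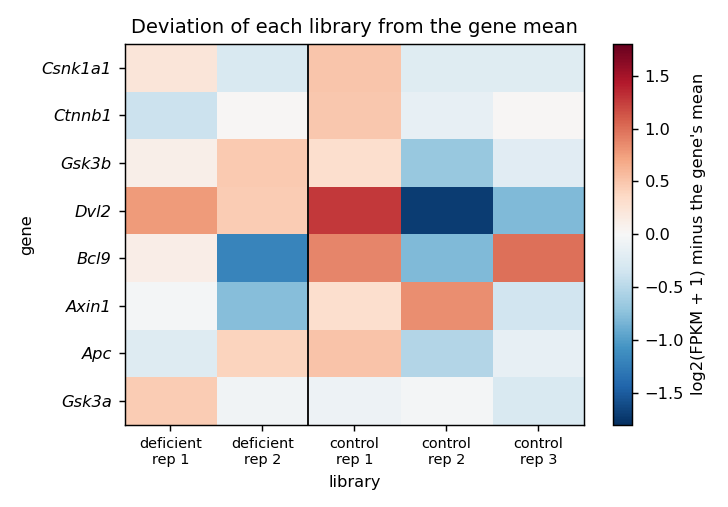
Deviation of each library (columns, deficient-labelled left of the line) from the gene's mean over the 5 libraries, in log2(FPKM + 1), for the 8 components (rows, by falling mean). Dvl2 has the widest range, from -1.71 in control replicate 2 to 1.27 in control replicate 1, while Gsk3a stays between -0.27 and 0.46. At the low level of Gsk3a the added 1 narrows that range. In FPKM its highest library was 2.25 times its lowest, against 1.86 times for Ctnnb1 and 1.72 times for Csnk1a1.

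Dvl2 is 1 of 3 mouse Dishevelled genes, whose products carry the signal from Frizzled to Axin, and it had the largest positive fold change and the largest spread of the 8. It was at 16.4 and 13.1 FPKM in libraries labelled deficient, against 23.7, 2.13 and 4.89 FPKM in control libraries. Control replicate 1 was above both deficient-labelled libraries and the other controls were far below them, an 11.1-fold range within the controls against a 1.25-fold range in the deficient-labelled pair. The log2 fold change was 1.03 (SE 0.90, 95% interval -1.08 to 3.13, adjusted p = 0.765, limma), 1.87 without control replicate 1 and 0.38 without control replicate 2. Exons of Dvl2 share 1151 bases with the opposite-strand gene Acadvl, a mitochondrial fatty acid enzyme. Acadvl was at 46.4 and 55.1 FPKM in libraries labelled deficient, against 67.7, 44.6 and 52.2 FPKM in control libraries, which is highest and lowest in the same libraries as Dvl2 but over a much smaller range.

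The Dishevelled paralogues varied from library to library as well. Dvl1 was at 0.0186 and 5.94 FPKM in libraries labelled deficient, against 7.59, 0.0561 and 5.39 FPKM in control libraries. Dvl3 was at 0 and 7.08 FPKM in libraries labelled deficient, against 7.11, 7.10 and 6.61 FPKM in control libraries. Dvl1 was thus near 0 in 1 library of each group, and Dvl3 at 0 in deficient-labelled replicate 1 alone. The 3 genes together came to 16.4 and 26.1 FPKM in libraries labelled deficient, against 38.3, 9.28 and 16.9 FPKM in control libraries, with a mean of 21.3 FPKM under the deficient label and 21.5 FPKM for controls. Dvl2 made up 99.9% and 50.1% of that sum in the deficient-labelled libraries, against 61.7%, 22.9% and 28.9% in the controls. The 99.9% and the sum of 16.4 FPKM rest on the 0 of Dvl3 and the near 0 of Dvl1 in deficient-labelled replicate 1. Since a 0 can be a failed estimate, that share, that sum and the mean of 21.3 FPKM are uncertain.

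Bcl9 is the adaptor that links nuclear beta-catenin to Pygo and so to transcription, and it had the largest negative fold change of the 8. It was at 6.21 and 1.93 FPKM in libraries labelled deficient, against 11.3, 2.82 and 12.2 FPKM in control libraries. Deficient-labelled replicate 2 was the lowest library, but control replicate 2 was below replicate 1 of the deficient-labelled pair. The log2 fold change was -0.89 (SE 0.84, 95% interval -2.85 to 1.07, adjusted p = 0.79, limma), -0.24 without deficient-labelled replicate 2 and -1.54 without replicate 1. Its paralogue Bcl9l was at 2.51 and 2.71 FPKM in libraries labelled deficient, against 6.17, 0.0115 and 2.88 FPKM in control libraries. Both genes were low in control replicate 2, where they came to 2.83 FPKM together, against 8.72 and 4.64 FPKM in libraries labelled deficient and 17.4 and 15.1 FPKM in control replicates 1 and 3.

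**Figure D3:**
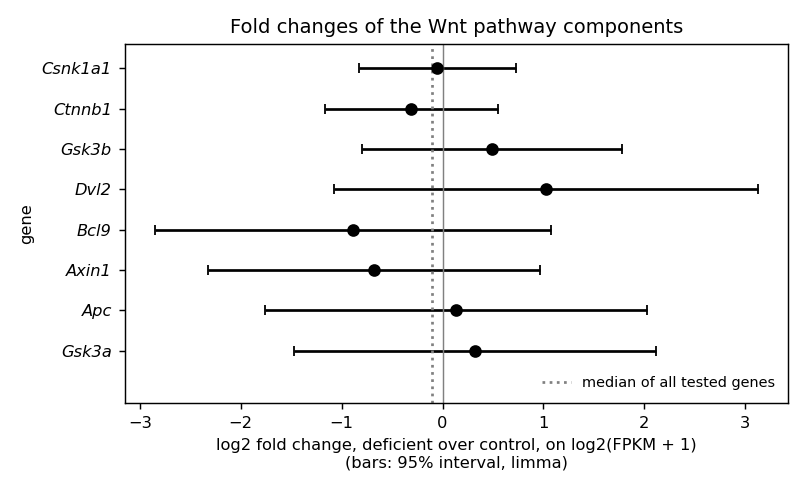
Log2 fold change of each component, deficient-labelled over control, on log2(FPKM + 1), with 95% intervals from limma (n = 2 and 3 libraries). Every interval covers 0 (solid line), and the dotted line marks the median of all tested genes, -0.10.

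The spread between control libraries differed widely among the 8 genes. The SD of log2(FPKM + 1) over the controls was 0.12 for Gsk3a, 0.32 for Ctnnb1 and 0.41 for Csnk1a1, against 1.004 for Bcl9 and 1.53 for Dvl2. The added 1 narrows the SD of Gsk3a at its low level. In FPKM the controls ranged 1.34-fold for Gsk3a, 1.56-fold for Ctnnb1 and 1.66-fold for Csnk1a1. The median was 0.51 over the 8 and 0.53 over all tested genes, and Dvl2 lay at percentile 90.8 of that spread. Control replicate 1 held the highest value of 4 of the 8 components, namely Ctnnb1, Csnk1a1, Dvl2 and Apc, and the lowest of none. For all tested genes that library was highest in 25.2% and lowest in 19.7%. Control replicate 2 was lowest for Apc, Gsk3b and Dvl2, and deficient-labelled replicate 2 for Axin1, Bcl9 and Csnk1a1.

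The genes whose pattern over the 5 libraries was most like that of Ctnnb1 were Dmap1, Rhot1 and Rrp7a. Their mean absolute difference from it in centred log2(FPKM + 1) was 0.042, 0.056 and 0.062, against a median of 0.55 over the 10569 genes compared, and 27 genes lay within 0.1. Dmap1 was at 32.9 and 40.6 FPKM in libraries labelled deficient, against 60.9, 37.2 and 41.3 FPKM in control libraries. Of the 7 other components, Apc and Csnk1a1 were the nearest to Ctnnb1 on this scale, with differences of 0.23 and 0.25, and Dvl2 was the farthest, with 0.96. Apc averaged 1.58 FPKM, a level at which the added 1 narrows the spread. The highest library of Apc was 3.51 times its lowest, against 1.86 times for Ctnnb1, so its nearness depends in part on that scale.

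The other casein kinase 1 genes gave no call. Csnk1d, which also acts in the Wnt pathway, was the steadiest, at 77.5 and 67.7 FPKM in libraries labelled deficient, against 72.9, 76.0 and 61.1 FPKM in control libraries. Csnk1a1 stood above it in all 5 libraries, by 2.02 and 1.63 times in the deficient-labelled libraries and by 2.61, 1.51 and 1.89 times in the controls. Csnk1e was at 8.82 and 14.0 FPKM in libraries labelled deficient, against 8.59, 8.29 and 21.1 FPKM in control libraries. The gamma forms, which are membrane-bound and phosphorylate the co-receptor Lrp6, were lower or similar: Csnk1g1 was between 1.15 and 12.4 FPKM, Csnk1g2 between 3.86 and 17.5 and Csnk1g3 between 3.34 and 7.33 over the 5 libraries. Their groups overlapped in each case. Apc2 and Axin2 were not analysed here.

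Across the wider pathway, drawn up as 9 lists of 194 genes by role, 108 genes were tested apart from the 8 components. Of these 0 passed in either direction (limma, adjusted over all tested genes, lowest adjusted p = 0.424). The 108 include the targeted genes Tle1, Tle3 and Tle4. The lowest adjusted p is that of Tle3, which is also counted in the shares below, and Plcb2 came next (adjusted p = 0.431, limma). At an unadjusted p under 0.05 there were 10 of 108 (9.26%, against 8.45% of all tested genes). Groups did not overlap in 29, which is 26.9% against 26.1% of all tested genes, a share near the background. Of these 15 were higher in the deficient-labelled libraries (10.2% of all tested genes were) and 14 lower (15.9%). Fold changes were positive in 54 and negative in 54, and their median was 0.019, beside -0.10 for all tested genes. Of the 108, 13 were listed at 0 in at least 1 library. Values of single genes below are descriptions of genes that did not pass.

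**Figure D4:**
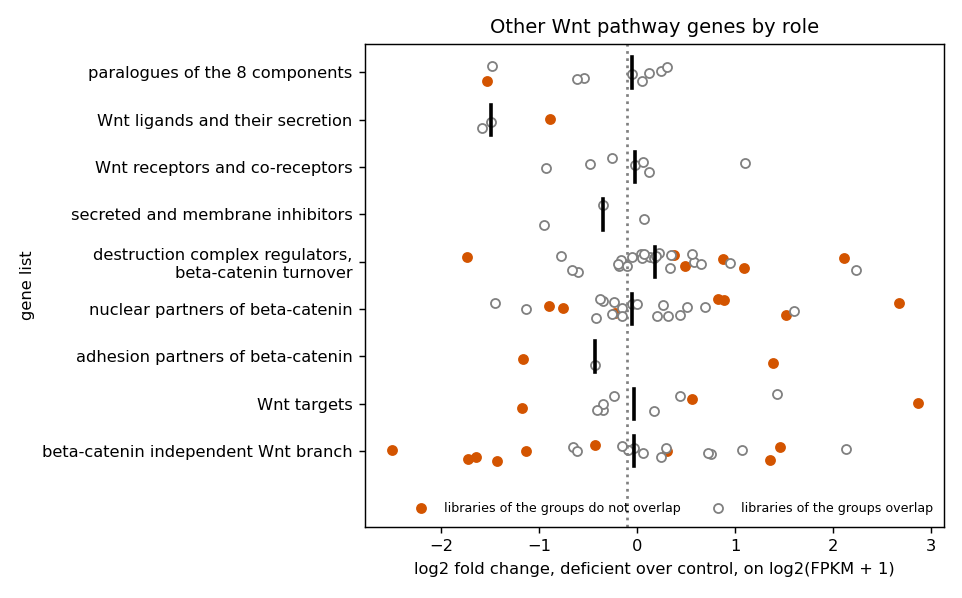
Log2 fold change, deficient-labelled over control, of the tested genes of each pathway list, with 1 point per gene, filled where the libraries of the groups do not overlap, and a black bar at the list's median. The dotted line is the median of all tested genes, and most medians lie within 0.5 of it, the 3 tested ligand and secretion genes being the exception at -1.498.

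At the start of the pathway few genes could be tested. Of 26 ligand and secretion genes 5 had a deposited value and 3 were tested, and of 20 receptor genes 14 had a value and 7 were tested. Wls, the carrier that takes Wnt proteins to the cell surface, was at 31.8 and 37.3 FPKM in libraries labelled deficient, against 54.7, 77.7 and 64.0 FPKM in control libraries, the 2 groups apart (unadjusted p = 0.0257, adjusted p = 0.508, limma). Porcn, the enzyme that attaches lipid to Wnt proteins, was at 0.878 and 0.127 FPKM in libraries labelled deficient, against 9.41, 0.0353 and 5.44 FPKM in control libraries. No receptor separated the groups. Mesdc2, a chaperone of the Lrp co-receptors, was at 26.0 and 18.6 FPKM in libraries labelled deficient, against 38.7, 19.6 and 39.2 FPKM in control libraries, and the most abundant receptor proper, Fzd6, was at 6.45 and 1.82 FPKM there, against 11.3, 6.55 and 6.14 FPKM in the controls. Of 22 inhibitors, 3 were tested and none separated. The Dkk1 receptor Kremen1 was at 3.52 and 3.26 FPKM in libraries labelled deficient, against 9.36, 0.04996 and 5.72 FPKM in control libraries. Znrf3, a ligase that removes Frizzled, was at 1.65 and 2.83 FPKM in libraries labelled deficient, against 3.78, 2.30 and 3.25 FPKM in control libraries.

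Among regulators of the destruction complex and of beta-catenin turnover, 28 of 30 were tested, 19 positive and 9 negative, with a median log2 fold change of 0.18. Groups did not overlap in 21.4% of them, against 26.1% of all tested genes. Of the 28, 5 lay above and 1 below every control, where 10.2% and 15.9% of all tested genes did. Skp1a, a subunit of the ubiquitin ligase that takes up phosphorylated beta-catenin, was at 224 and 202 FPKM in libraries labelled deficient, against 230, 216 and 270 FPKM in control libraries. Rbx1, the RING subunit of the same ligase, was at 173 and 86.9 FPKM in libraries labelled deficient, against 101, 805 and 114 FPKM in control libraries, with control replicate 2 far above the rest. Among the subunits of protein phosphatase 2A that bind Axin and Apc, Ppp2r5b was at 11.9 and 7.05 FPKM in libraries labelled deficient, against 5.09, 2.32 and 4.39 FPKM in control libraries (log2 fold change 1.09, adjusted p = 0.692, limma). Ppp2r5d was at 32.2 and 36.3 FPKM in libraries labelled deficient, against 0, 16.4 and 30.02 FPKM in control libraries (log2 fold change 2.11, adjusted p = 0.692, limma). Its fold change was 0.60 without control replicate 1, where it was listed at 0. Tnks2, a tankyrase that marks Axin for degradation, was at 0.0185 and 3.12 FPKM in libraries labelled deficient, against 7.06, 7.37 and 3.73 FPKM in control libraries (log2 fold change -1.74, adjusted p = 0.634, limma). Without deficient-labelled replicate 1, where it was near 0, the fold change of Tnks2 was -0.73, and without replicate 2 it was -2.75.

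Nuclear partners of beta-catenin, 25 of 31 tested, had a median of -0.055, with 4 above and 3 below every control (28.0%, against 26.1% of all tested genes). Ruvbl1, an ATPase of chromatin complexes that binds beta-catenin, was at 188 and 117 FPKM in libraries labelled deficient, against 194, 190 and 152 FPKM in control libraries. Hdac1, a deacetylase recruited by TLE proteins, was at 146 and 119 FPKM in libraries labelled deficient, against 147, 140 and 112 FPKM in control libraries. Hdac2, a related deacetylase named after its values were seen, was at 49.5 and 64.7 FPKM in libraries labelled deficient, against 84.6, 95.6 and 111 FPKM in control libraries, the groups apart (log2 fold change -0.76, unadjusted p = 0.0352, adjusted p = 0.548, limma). Chd8, a remodeller that represses beta-catenin targets, was at 14.3 and 6.63 FPKM in libraries labelled deficient, against 3.82, 0.809 and 5.19 FPKM in control libraries (log2 fold change 1.52, adjusted p = 0.658, limma), and the fold change was 1.01 without deficient-labelled replicate 1 and 0.99 without control replicate 2. The targeted gene Tle3, counted among the 4 above every control, had the lowest p on these lists (log2 fold change 2.68, SE 0.58, adjusted p = 0.424, limma). Tcf7, Lef1 and Axin2, which are the usual blood-cell readouts of TCF activity, were not analysed here.

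Among known Wnt targets, 10 of 27 were tested, 5 positive and 5 negative, with a median of -0.034 and groups apart in 3 of the 10, against 26.1% of all tested genes. Myc, a growth regulator, was at 192 and 139 FPKM in libraries labelled deficient, against 211, 314 and 135 FPKM in control libraries. Ccnd2, a G1 cyclin, was at 81.0 and 67.2 FPKM in libraries labelled deficient, against 492, 103 and 92.2 FPKM in control libraries (log2 fold change -1.17, adjusted p = 0.67, limma), and the fold change was -0.40 without control replicate 1. Id2, an inhibitor of helix-loop-helix factors that is also high in myeloid cells, was at 14.1 and 33.8 FPKM in libraries labelled deficient, against 3.68, 0.220 and 4.38 FPKM in control libraries (log2 fold change 2.87, SE 0.88, unadjusted p = 0.0124, adjusted p = 0.44, limma). Of the 2 deficient-labelled libraries, the one with the higher granulocyte-monocyte sum had the higher Id2 value. That order did not hold in the controls, where replicate 2 had the highest sum, 3055 FPKM, and the lowest Id2. The part of those cells in the Id2 values was not tested.

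Beta-catenin also works at cell contacts, and 3 of 9 genes of that list were tested, with a median of -0.43. Of these, 1 was below and 1 above all controls (66.7%, against 26.1% of all tested genes, on a list of 3). Ctnna1, which encodes alpha-catenin and ties beta-catenin to actin, was at 19.2 and 21.8 FPKM in libraries labelled deficient, against 76.0, 40.8 and 33.5 FPKM in control libraries (log2 fold change -1.16, SE 0.44, unadjusted p = 0.0306, adjusted p = 0.54, limma). Jup, the plakoglobin gene and closest relative of Ctnnb1, was at 2.57 and 1.32 FPKM in libraries labelled deficient, against 5.80, 6.41 and 10.5 FPKM in control libraries (log2 fold change -1.53, unadjusted p = 0.0625, adjusted p = 0.611, limma). Vcl, which encodes the actin linker vinculin and is abundant in platelets, lay the other way, at 29.2 and 41.4 FPKM in libraries labelled deficient, against 12.2, 17.2 and 9.53 FPKM in control libraries (log2 fold change 1.39, SE 0.46, unadjusted p = 0.0182, adjusted p = 0.496, limma). Megakaryocyte-platelet markers were higher in the same 2 libraries, as given above. Their sum was higher in deficient-labelled replicate 1 (9129 against 4367 FPKM), whereas Vcl was higher in replicate 2. The part of such cells in the Vcl value was not tested. In these 3 genes the groups did not overlap, whereas Ctnnb1 and Ctnnd1, which encodes p120-catenin, overlapped. Ctnnb1 was 1.495 and 1.75 times Ctnna1 in the deficient-labelled libraries and 0.702, 0.837 and 1.15 times in the controls, a ratio chosen after the values were seen.

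**Figure D5:**
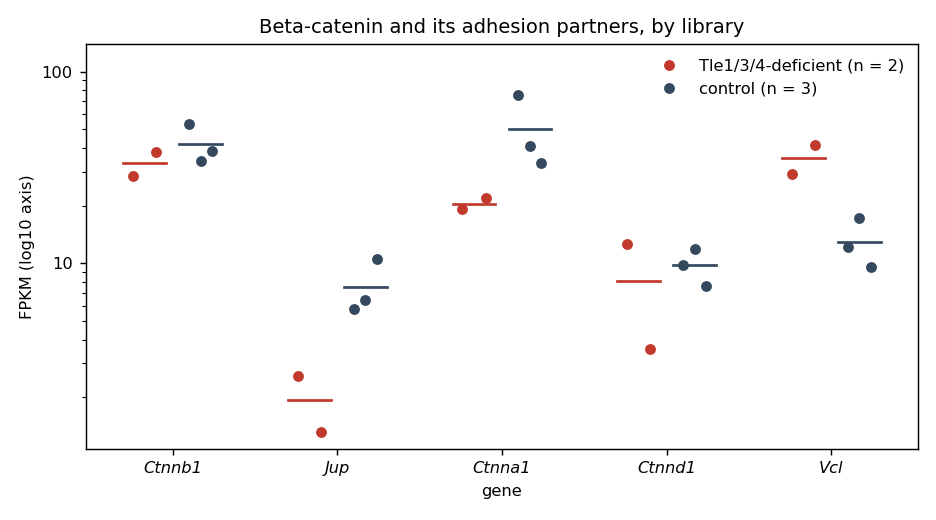
FPKM on a log10 axis of Ctnnb1, its paralogue Jup and the tested adhesion partners Ctnna1, Ctnnd1 and Vcl, with 1 point per library and a bar at each group mean, the deficient-labelled libraries (red) left of the controls (dark). Jup and Ctnna1 lie below every control and Vcl above all controls in both libraries labelled deficient, while Ctnnb1 and Ctnnd1 overlap.

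The branch of Wnt signalling that does not use beta-catenin had 21 of 26 genes tested, with 3 above and 6 below every control (42.9%, against 26.1% of all tested genes) and a median of -0.035. The small GTPases Cdc42 and Rac1 were the most abundant, Cdc42 at 223 and 251 FPKM in libraries labelled deficient, against 172, 213 and 191 FPKM in control libraries. Rac1 was at 203 and 233 FPKM in libraries labelled deficient, against 212, 177 and 149 FPKM in control libraries. The planar polarity genes Prickle1 and Vangl2 were higher in both deficient-labelled libraries, Prickle1 at 24.4 and 17.4 FPKM there, against 6.17, 9.54 and 5.38 FPKM in control libraries (log2 fold change 1.46, adjusted p = 0.54, limma). Vangl2 was at 28.4 and 9.81 FPKM in libraries labelled deficient, against 2.33, 9.79 and 8.36 FPKM in control libraries, so that its second value exceeded the highest control only narrowly, and its log2 fold change of 1.36 (adjusted p = 0.666, limma) was 0.64 without deficient-labelled replicate 1, 2.08 without replicate 2 and 0.83 without control replicate 1. The 6 genes below all controls were Plcb1, Plcb2, Camk2a, Camk2b, Nfatc1 and Nfatc3. Plcb2, a phospholipase C of blood cells, was at 14.5 and 12.2 FPKM in libraries labelled deficient, against 52.5, 36.1 and 44.6 FPKM in control libraries (log2 fold change -1.65, SE 0.38, unadjusted p = 0.00287, adjusted p = 0.431, limma). Its relative Plcb1 was listed at 0 in both libraries labelled deficient, against 2.39, 8.60 and 4.68 FPKM in control libraries. Camk2a, a calcium-dependent kinase, was at 6.65 and 6.75 FPKM in libraries labelled deficient, against 16.1, 14.4 and 17.4 FPKM in control libraries (log2 fold change -1.14, adjusted p = 0.595, limma). Nfatc3, a transcription factor switched on by calcium, was at 5.28 and 7.25 FPKM in libraries labelled deficient, against 30.1, 10.8 and 19.0 FPKM in control libraries (log2 fold change -1.44, adjusted p = 0.577, limma). The groups overlapped for Camk2d, Camk2g, Nfatc2 and Plcb3, the other tested genes of these families on the list, and for Prkca, with log2 fold changes from -0.62 for Camk2d to 0.73 for Prkca.

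Since TLE proteins sit on TCF and LEF factors at Wnt target genes, the promoters of the components were searched for the letters these factors bind. Other factors that may bring TLE proteins to DNA were not searched for. RefSeq promoters of 300 bases (250 before to 50 after a start, GRCm38.p6) were given for Ctnnb1 (2 starts), Gsk3a, Gsk3b, Dvl2 and Bcl9, and the motif CTTTGNN, with A or T at both of the last places, was sought on both strands. Apc, Axin1 and Csnk1a1 had no promoter in that set. A match was found in 1 of 6 promoters, beside 16.9% of all 32851 promoters, namely that of Gsk3a, where it starts 158 bases before the gene's start and reads on the opposite strand. The stretch around it, at chr7:25237973-25238039 on the minus strand (GRCm38.p6), is shown with the match in capitals. It is a match of letters, not a measured site.
Gsk3a promoter stretch: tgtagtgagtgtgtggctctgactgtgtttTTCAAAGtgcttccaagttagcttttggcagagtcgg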

How the data were processed

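The 5 RNA-seq libraries were grouped and numbered by sample title. The table that the authors deposited holds FPKM for each symbol, the unit being in its name. Per the submitters' processing notes the build was mm9 and TopHat and edgeR were used, with no version or role; annotation, filters and strandedness are unstated. Since FPKM is relative to the library total, very abundant genes lower all others, and values at 0 can be failed estimates.

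Values of log2(FPKM + 1) were fitted for genes whose mean reached 1 FPKM, by limma (version 3.58.1, R 4.3.3) with group as sole term and a trended prior variance. Tests were two-sided, with Benjamini-Hochberg adjustment over all fitted genes and a threshold of 0.05. The fit was tested on simulated data. Depth is unknown in absolute terms, so no counting interval can be given. The components and lists were chosen with earlier results of these data known. A lymphoid marker was left out of its list and is not reported here. Named genes were the 8 components, their paralogues, the 2 most abundant genes per list, those past the threshold, and those with non-overlapping groups, an absolute log2 fold change of at least 1 and at least 5 FPKM as the larger mean. Genes beyond that rule, such as Hdac2, Ctnnd1 and Camk2d, were named after their values were seen. The 3 genes most like Ctnnb1 were also named by rule. Alternatives covered the pseudocount, filter, scaling, eBayes settings, array weights, a block on replicate number, and leaving out each library. Coordinates and shared exon bases come from GENCODE vM21 (GRCm38), not from the files' build.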

Additional observations from a re-analysis of the deposited data

How the results depend on the processing

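None of the 8 components, and none of the 108 wider pathway genes, passed under any of the 15 alternatives, the lowest adjusted p of a component being 0.694. The direction held under all alternatives run for 6 of the 8 components. The exceptions were Apc, from -0.18 to 0.45 when each library was left out, and Csnk1a1, which was 0.076 after median-of-ratios scaling, 0.035 with array weights and -0.30 to 0.20 when each library was left out. The direction also held for all 16 further genes named by the rule on fold and level. That rule took only genes whose groups did not overlap, so leaving out a library could not turn their sign. For any gene, the filter and the eBayes settings without trend or robust leave the fold change itself unchanged. The Gsk3b to Gsk3a log2 difference of 0.16 ranged from -0.28 to 0.61 when each library was left out. It was 0.040 with a pseudocount of 0.1, so its size depends on the pseudocount. The number of genes past the threshold over the whole table, 2 here, was 0 with a pseudocount of 0.1, 4 with a pseudocount of 5, 0 with no filter, 4 after median-of-ratios scaling, 1 without trend, 5 with robust eBayes, 0 with array weights and 0 to 5 when each library was left out. With the replicate number as a block it was 22, and the Gsk3 difference was 0.23. Same-numbered libraries did not deviate together (r = 0.035 and 0.0069 across genes for numbers 1 and 2), so the numbers were not taken to pair the samples. The cause of these differences was not tested. Where only 1 deficient-labelled library was left, it was assumed to vary like the controls. Apc and Gsk3a had no value under a filter of 5 FPKM. With 2 and 3 libraries, the 95% intervals of the components reach 0.78 to 2.10 on either side of the estimate on the log2 scale.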
